A study of Mus musculus with 6 samples.

Results

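The transcription factors and regulators that direct thymocyte development were compared between a pair of mouse lymphoid cell lines. The set held 10 genes, Tox, Tcf7, Lef1, Gata3, Bcl11b, Notch1, Satb1, Ets1, Myb and Rag1, taken by name from the array's own gene column with every probe kept. They were read by 25 probes of 41174 on the array. RNA came from MR 4-25 cells, a line described by its depositors as recovered from mannitol, and from Neo cells, the S49 line it was set against as the parent. S49 is a line grown from a mouse T cell lymphoma. Both lines were grown untreated in the same serum-containing medium, so the comparison is of 2 standing lines and not of cells under hyperosmotic stress. Each line gave 3 arrays, named MR 4-25 1 to 3 and Neo 1 to 3. The labels do not say that the RNA samples of a line came from separate cultures, so p-values here cover the spread over 3 samples of each line, possibly a technical one. Each line stands for itself and not for other lines made the same way.

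In the thymus, Notch1, a receptor cut at the membrane to release a transcriptional activator, starts the T cell program in incoming progenitors. Its signal turns on Tcf7, which with Gata3 and then Bcl11b opens T cell genes and closes the other blood fates. Myb acts in progenitors and early thymocytes and, with Ets1, Satb1, Lef1 and Tox, at later steps. Among these steps are rearrangement of the T cell receptor genes by the Rag1 and Rag2 recombinase and the CD4 or CD8 lineage choice.

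The array carried 60-base DNA probes, and several of the member probes read the part of a transcript that encodes a domain its product is known for. An Ets1 pair lies in sequence that encodes the DNA-binding ETS domain, and is shown because Ets1 gave a call on another probe and these overlap yet differ in letters. A_52_P232830 lies at chr9:32655863-32655922 and A_51_P329043 at chr9:32655853-32655912, both on the plus strand of build mm7, the build of the array's annotation. The overlap holds 50 bases, of which 46 match. The capitals mark the letters that differ, which counted from the 5′ end of A_52_P232830 are A10G, G11C, G37C and C38G, with the letter of A_51_P329043 given last.
A_52_P232830: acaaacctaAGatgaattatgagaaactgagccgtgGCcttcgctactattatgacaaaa
A_51_P329043: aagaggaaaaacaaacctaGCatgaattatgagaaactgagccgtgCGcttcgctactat

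A further 3 probes are shown because each reads coding sequence far from the transcript's end and could be set beside a probe nearer to it or beside another part of the same gene. The Bcl11b probe A_51_P171772, at chr12:105437087-105437146 on the minus strand, reads a zinc finger of Bcl11b. The Myb probe A_52_P444839, at chr10:20878630-20878689 on the minus strand, reads a DNA-binding Myb repeat. The Rag1 probe A_52_P646895, at chr2:101495236-101495295 on the minus strand, reads the coding part of Rag1. These 3 are in lower case throughout, with no letter marked.
A_51_P171772: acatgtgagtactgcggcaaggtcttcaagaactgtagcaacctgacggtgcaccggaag
A_52_P444839: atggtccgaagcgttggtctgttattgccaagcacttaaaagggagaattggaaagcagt
A_52_P646895: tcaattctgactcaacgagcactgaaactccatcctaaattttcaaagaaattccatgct

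The 75th percentile of the gene spots, which serves as the unit of level below, was 844 to 988 intensity units on 5 of the arrays and 521 on MR 4-25 3. The share of probes well above background was 69.9% to 76.3% on those 5 and 61.3% on MR 4-25 3. The arrays numbered 3 stood apart from the others of their line, across 30965 probes that are not independent replicates. MR 4-25 3 correlated at 0.892 and 0.906 with MR 4-25 1 and 2 and at 0.933 with Neo 3. Neo 3 correlated at 0.918 and 0.940 with Neo 1 and 2. Between the lines, the arrays numbered 1 and 2 correlated at 0.960 to 0.968. The arrays lay on 2 slides, slide 1 with the arrays numbered 1 and 2 of both lines and slide 2 with the arrays numbered 3. All 8 T cell markers were well above background on all 6 arrays, with a summed level of 223 to 246 in MR 4-25 and 228 to 271 in Neo. One of them, Cd247, was called lower in MR 4-25, at a log2 difference of -4.06, which the sum over brighter markers does not show. Of the other cell types, the summed level of 10 myeloid markers was 3.47 to 3.99 in MR 4-25 and 2.19 to 2.66 in Neo, and that of 8 B cell markers was 1.31 to 1.51 in MR 4-25 and 1.55 to 1.81 in Neo. Blnk, a B cell adaptor, fell in MR 4-25 by 1.90 ± 0.25 on the log2 scale (limma adjusted p 0.0399), the 1 B cell marker called, and did not pass with the replicate block (limma adjusted p 0.110) or with normexp (limma adjusted p 0.536). For 5 natural killer cell markers it was 0.429 to 0.465 in MR 4-25 and 0.262 to 0.441 in Neo, for 6 erythroid markers 1.5 to 1.62 in MR 4-25 and 0.753 to 1.57 in Neo, and for 8 stromal and epithelial markers 0.961 to 1.93 in MR 4-25 and 0.671 to 1.43 in Neo. Of the last list, Epcam and Cdh1 were well above background on 0 arrays. The part of these markers in the differences below was not tested.

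Most of the set was lower in MR 4-25 than in Neo, with Tox and Ets1 passing the test and Lef1 on the other side of 0. Tox was 5.73-fold lower on its brightest probe, and of the 23 probes that were measured, 3 passed, all lower: both measured Tox probes and 1 of 4 Ets1 probes. Over all probes, 1.3% were called, 0.601% lower and 0.694% higher, of 30965 tested (limma, Benjamini-Hochberg adjusted p under 0.05), against 3 and 0 of the 23 here. Another 18 member probes had a difference below 0 that did not pass, and 51.6% of all probes were below 0. Of the 23, 21 had an unadjusted limma p under 0.05, all 21 lower, where 14.2% of all probes had one in either direction. In 20 of the 23, every MR 4-25 array lay below every Neo array, which held for 14.4% of all probes, while 10.8% had every MR 4-25 array above every Neo array. Probes of a gene share its transcript and are not independent, and by gene 8 of 10 brightest probes were lower without overlap. The share over the brightest probes of all genes was not counted. The median difference was -1.15 over the measured probes and -0.02 over all probes. All 23 were well above background on every array and none was saturated, so no member was kept by the high line alone. In bulk RNA, a lower share of cells with a transcript and less of it in each cell cannot be told apart. The 2 probes not measured were Tox A_52_P258211, well above background on 0 MR 4-25 arrays and 1 Neo array, and Lef1 A_52_P333110, well above background on none.

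Same-numbered arrays deviated together, but on slide 1 the crossed pairs did so more, at 0.411 and 0.359 against 0.293 and 0.209. On slide 1 the correlations thus showed no pairing by number beyond the slide, and on slide 2 number and slide coincide. With the replicate number as a block, no member probe passed the test (limma, smallest adjusted p 0.0931), and over all 30965 probes 1 passed. There 20 member probes had an unadjusted limma p under 0.05, and 4296 of all probes did. With the slide as a block 2 member probes passed, Tox A_52_P561073 and Ets1 A_52_P258291. An unadjusted limma p under 0.05 was then seen for 21 member probes and for 5566 of all probes. Normexp background correction, run with an offset of 50 intensity units, moved the median of all probes by 0.37. With it no member probe passed either (limma, 16 at an unadjusted p under 0.05, against 2298 of all probes). The 2 Tox differences were -1.16 and -0.75. Without MR 4-25 3, Tox A_52_P561073 was the only member probe that passed, and without any 1 of the other 5 arrays none did. In those 5 fits, 16 to 21 member probes had an unadjusted limma p under 0.05, as did 2627 to 3787 of all probes.

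**Figure D1:**
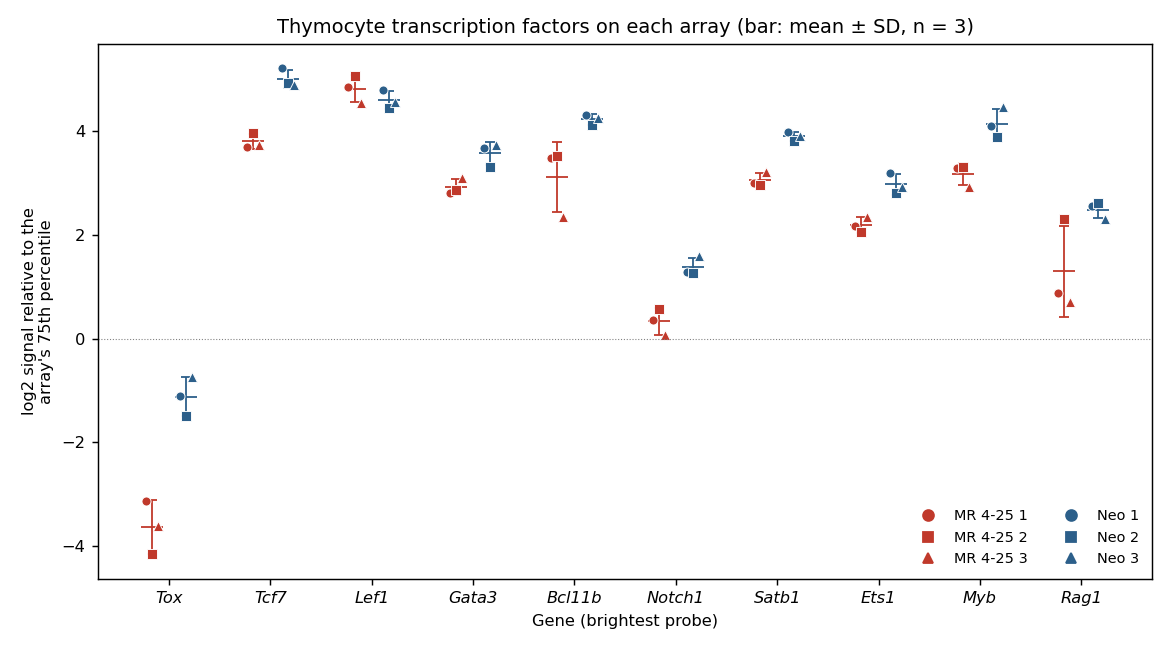
The log2 signal relative to the array's 75th percentile (y axis) is plotted for the brightest probe of each gene (x axis) on the MR 4-25 arrays (red, left) and the Neo arrays (blue, right), with mean and SD over 3 arrays. The red and blue points of Tox are farthest apart, those of Lef1 interleave, and 1 red Rag1 point, MR 4-25 2, lies among the blue points.

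Notch1, the receptor at the head of the program, had 2 probes that lie end to end at chr2:26466563-26466680 on the minus strand. Its probe A_51_P508510, spotted 10 times, read 1.28, 1.49 and 1.04 times the 75th percentile on MR 4-25 1, 2 and 3, against 2.43, 2.40 and 3.01 on Neo 1, 2 and 3. The MR 4-25 arrays were all below the Neo arrays, with a log2 difference of -1.05 ± 0.20 (SE, n = 3 each) that did not pass (limma adjusted p 0.105). Its other probe, A_52_P183088, gave -0.93 ± 0.20 (limma adjusted p 0.137), also without overlap.

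Tcf7, the HMG-box factor induced by Notch signals in the thymus, lay close to the threshold. The probe A_52_P244702, at chr11:52209369-52209428 on the minus strand, read 12.9, 15.7 and 13.3 in MR 4-25 and 37.1, 30.6 and 29.5 in Neo. The lines did not overlap, and the difference of -1.21 ± 0.17 missed the threshold narrowly (limma adjusted p 0.0505). The second probe, A_52_P244711, read 8.61, 10.0 and 4.73 in MR 4-25 and 29.0, 16.6 and 19.8 in Neo, a difference of -1.51 ± 0.37 (limma adjusted p 0.169), with MR 4-25 3 the lowest array.

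Lef1, the relative of Tcf7 that binds the same DNA sequence and partners with beta-catenin, gave values of the opposite sign on both measured probes. The probe A_51_P501145, at chr3:131060609-131060668 on the plus strand, read 28.8, 33.3 and 23.2 in MR 4-25 and 27.6, 21.8 and 23.7 in Neo. The lines overlapped and the difference was 0.22 ± 0.20 (limma adjusted p 0.695), with a 95% interval of -0.29 to 0.72. The other probe, A_51_P420400, whose annotated span of chr3:131041424-131059585 crosses an intron, gave 0.19 ± 0.23 (limma adjusted p 0.770) and a 95% interval of -0.39 to 0.78. The test did not call a change in Lef1, and both intervals leave out a fall of the size seen on either Tcf7 probe.

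Gata3, the zinc finger factor needed for T lineage entry and the CD4 fate, gave the smallest difference among the 9 lower genes by brightest probe. Its only probe, A_52_P546363 at chr2:9796514-9796573 on the minus strand, read 6.97, 7.25 and 8.51 in MR 4-25 and 12.8, 9.96 and 13.3 in Neo. The lines did not overlap, at -0.66 ± 0.19 (limma adjusted p 0.212).

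Bcl11b, the zinc finger factor that commits progenitors to the T lineage, read 11.2, 11.5 and 5.06 in MR 4-25 and 19.9, 17.3 and 19.1 in Neo on its zinc finger probe. MR 4-25 3 was below the other MR 4-25 arrays, which were themselves below all of Neo, and the difference was -1.11 ± 0.36 (limma adjusted p 0.264). A probe listed under an older clone name, 9130430L19Rik, which RefSeq gives as a synonym of Bcl11b, lay outside the name rule and read 5.39, 5.24 and 2.27 in MR 4-25 and 8.61, 6.36 and 7.56 in Neo, a difference of -0.90 ± 0.39 (limma adjusted p 0.396).

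Ets1, the founding member of the ETS factors and an activator of T cell receptor genes, had 4 probes, all lower without overlap. The probe A_52_P258291, at chr9:32656915-32656974 on the plus strand, read 0.914, 0.852 and 0.745 in MR 4-25 and 1.94, 1.83 and 1.77 in Neo. Its values were tight within each line, and it fell by 1.15 ± 0.15 on the log2 scale (limma adjusted p 0.0430). The brightest, A_52_P194250 at chr9:32658897-32658956, read 4.52, 4.13 and 5.06 in MR 4-25 and 9.20, 7.00 and 7.54 in Neo, at -0.79 ± 0.18 (limma adjusted p 0.146).

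The overlapping ETS domain probes printed above gave differences of a like size. A_52_P232830 read 2.68, 2.21 and 1.04 in MR 4-25 and 4.61, 4.36 and 5.39 in Neo, a difference of -1.38 ± 0.39 (limma adjusted p 0.210). A_51_P329043 read 0.478, 0.360 and 0.193 in MR 4-25 and 0.850, 1.04 and 0.961 in Neo, a difference of -1.56 ± 0.36 (limma adjusted p 0.153). On both, MR 4-25 3 was the lowest array, so that the slide 2 differences of -2.37 and -2.31 exceeded the slide 1 differences of -0.88 and -1.18.

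Myb, an activator that keeps progenitors and early thymocytes cycling and surviving, had 4 probes, all lower without overlap. The probe A_51_P375543, at chr10:20851212-20851271 on the minus strand and spotted 10 times, read 9.82, 9.85 and 7.63 in MR 4-25 and 17.1, 14.8 and 22.0 in Neo, at -0.97 ± 0.22 (limma adjusted p 0.146). The Myb repeat probe A_52_P444839 read 0.524, 0.440 and 0.394 in MR 4-25 and 0.734, 0.638 and 0.923 in Neo, at -0.75 ± 0.21 (limma adjusted p 0.211). The other 2, A_51_P375538 and A_52_P83704, gave -0.78 and -1.48.

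Satb1, a chromatin organiser needed for orderly thymocyte gene expression, had 2 probes that both missed the threshold. A_51_P324228, at chr17:49889761-49889820 on the minus strand, read 7.97, 7.77 and 9.30 in MR 4-25 and 15.8, 14.0 and 15.1 in Neo, at -0.84 ± 0.15 (limma adjusted p 0.0908). A_52_P110489 read 0.679, 0.551 and 0.397 in MR 4-25 and 1.41, 1.28 and 1.77 in Neo, at -1.48 ± 0.26 (limma adjusted p 0.0854). Neither passed, and in both the lines were apart on every array.

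Tox, an HMG-box factor required for CD4 lineage development in the thymus, gave the largest differences among the members. The probe A_51_P421912, at chr4:6615142-6615201 on the minus strand, read 0.114, 0.0558 and 0.0817 in MR 4-25 and 0.461, 0.355 and 0.598 in Neo. Its log2 level averaged -3.64 ± 0.52 in MR 4-25 and -1.12 ± 0.38 in Neo (SD, n = 3 each), and it fell by 2.52 ± 0.34 (limma adjusted p 0.0462). The probe A_52_P561073, at chr4:6615449-6615508, read 0.0575, 0.0520 and 0.0671 in MR 4-25 and 0.252, 0.223 and 0.291 in Neo, and fell by 2.12 ± 0.19 (limma adjusted p 0.0156). On both probes every MR 4-25 array lay below every Neo array, and the slide 1 and slide 2 differences were -2.34 and -2.87 on the first and -2.12 on both slides for the second.

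By the root mean square difference of standardised profiles over the 6 arrays, among 15238 genes, the profiles most like that of Tox were those of Atxn7l1 (0.0538, log2 difference -1.09), Zfp945 (0.0719, -0.74) and Ndst2 (0.0754, -0.89). Over 6 arrays, any gene that sets the lines apart in the same direction has a like profile, so this likeness does not show shared regulation.

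Rag1, the recombinase subunit that cuts antigen receptor genes, varied most within MR 4-25. Its brightest probe, A_51_P232411 at chr2:101489372-101489431 on the minus strand, read 1.85, 4.95 and 1.63 in MR 4-25 and 5.88, 6.09 and 4.92 in Neo. MR 4-25 2 lay among the Neo arrays while the other two were well below, and the difference was -1.19 ± 0.46 (limma adjusted p 0.342). The probe A_51_P232416, spotted 10 times, read 1.45, 3.1 and 1.27 in MR 4-25 and 4.74, 4.60 and 3.55 in Neo, a difference of -1.25 ± 0.39 with MR 4-25 2 again the highest of its line (limma adjusted p 0.240). The coding probe A_52_P646895 read 0.137, 0.213 and 0.0573 in MR 4-25 and 0.355, 0.379 and 0.387 in Neo, at -1.65 ± 0.50 (limma adjusted p 0.233).

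**Figure D2:**
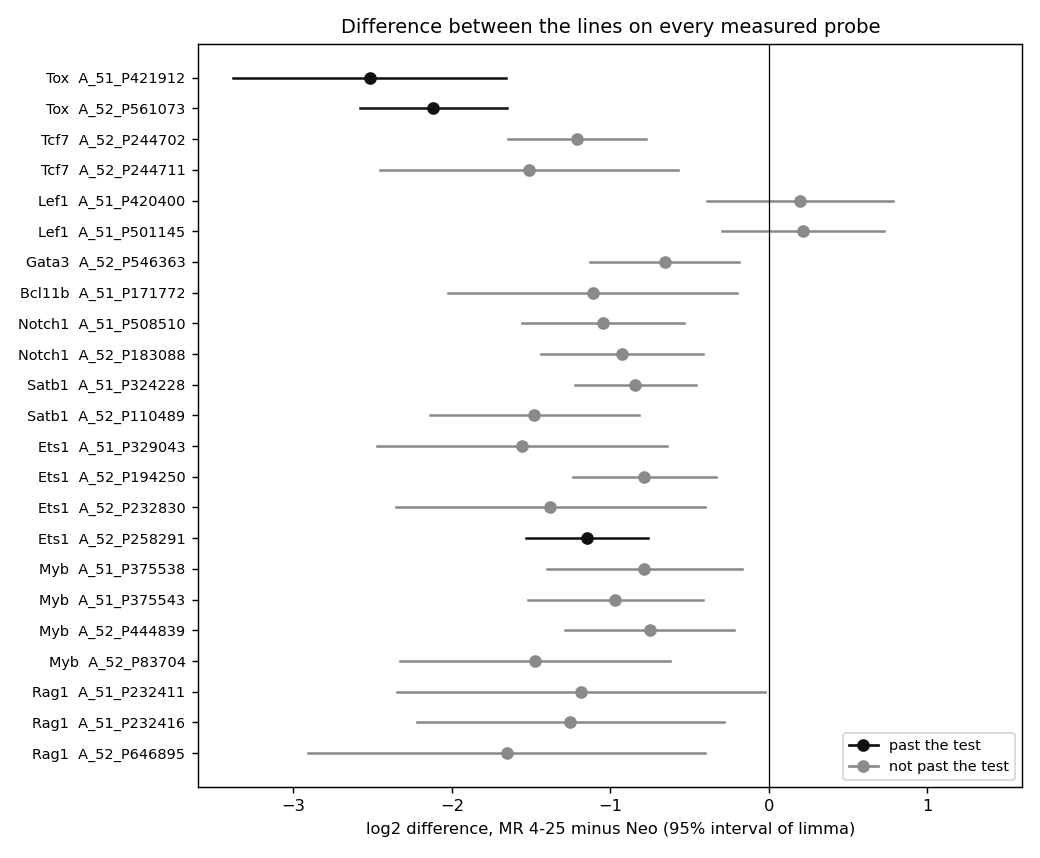
The log2 difference, MR 4-25 minus Neo, is plotted with its 95% interval for all 23 measured probes (rows), in black where the test was passed. The 2 Lef1 probes lie right of 0 and the other 21 left of it, with both Tox probes and Ets1 A_52_P258291 in black.

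The differences were not of 1 size on the 2 slides. On slide 1 the median over the 23 probes was -0.91, against -0.02 over all probes, and on slide 2 it was -1.53, against 0.02. Of the 21 lower probes, 17 were lower still on slide 2. Over all probes, whatever the sign of their difference, 48.8% were lower on slide 2 than on slide 1. That share was not taken over the lower probes alone. The differences of the 21 spanned -2.34 to -0.51 on slide 1 and -2.87 to -0.57 on slide 2, so none changed sign. The slide 1 and slide 2 differences were -1.10 and -2.76 on Rag1 A_52_P646895, -0.98 and -2.47 on Myb A_52_P83704, -0.71 and -1.92 on Bcl11b A_51_P171772, and -1.14 and -2.16 on Satb1 A_52_P110489. Slide 2 holds MR 4-25 3, the dim array, and Neo 3, and what the gap owes to either was not tested. On the probes just named, in that order, MR 4-25 3 differed from the mean of MR 4-25 1 and 2 by -1.58, -0.87, -1.17 and -0.62. Neo 3 differed from the mean of Neo 1 and 2 by 0.08, 0.62, 0.04 and 0.39. In MR 4-25 3, the probe farther from the 3′ end was set beside the probe nearer to it, each against MR 4-25 1 and 2. The farther probe was lower for 5 of the 9 members with 2 or more probes, the Bcl11b probe under its clone name included. By the same rule it was lower for 48.3% of 4827 genes with 2 or more probes. With probes under the members' own names only, it was lower for 5 of 8.

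**Figure D3:**
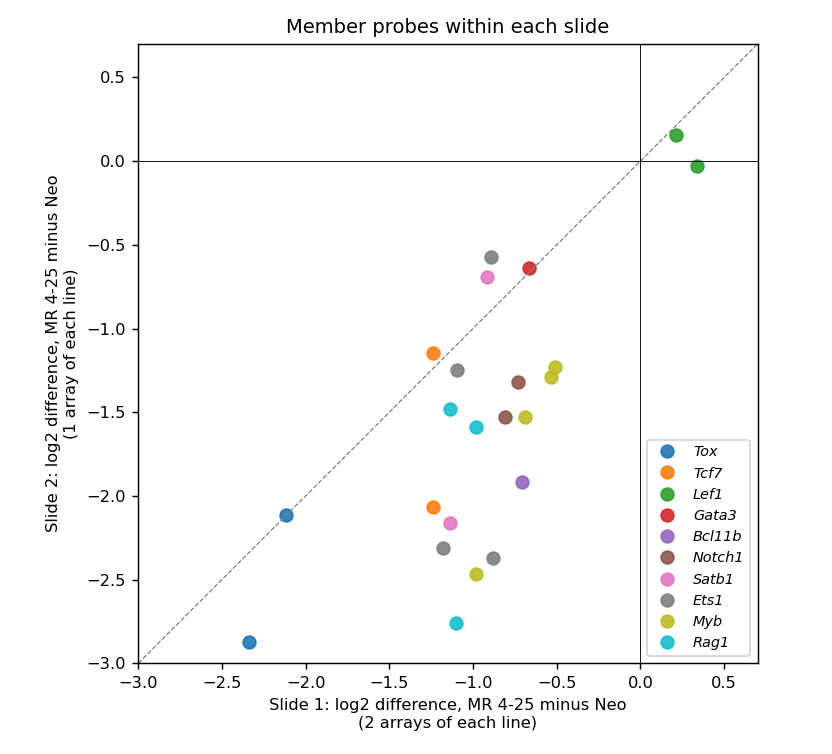
The log2 difference, MR 4-25 minus Neo, within slide 1 (x axis, 2 arrays of each line) is set against that within slide 2 (y axis, 1 array of each line) for the 23 member probes, coloured by gene. Points of 17 of the 21 lower probes lie below the dashed line of equality.

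Other genes of the same pathways are given by their counts and medians on the brightest probe of each gene. Over all genes the median was 0.01 and 1.34% were called, 0.731% higher and 0.604% lower. In a fit of the brightest probes alone, 2830 of 21341 genes had an unadjusted limma p under 0.05. Among 28 measured ligands, processing enzymes and targets of Notch, 1 rose and none fell by limma, with 5 at an unadjusted p under 0.05, and the median was 0.13. The riser was Il2ra, which encodes CD25 and is a gene Notch activates in thymocytes, at 1.74, 1.70 and 2.28 in MR 4-25 and 0.239, 0.202 and 0.216 in Neo, higher by 3.11 ± 0.18 (limma adjusted p 0.0064, and 0.0929 with the replicate block). Chosen after their values were seen, Ptcra, the pre-T cell receptor alpha chain, gave -2.57 ± 0.48 (limma adjusted p 0.0994), Nrarp, a feedback inhibitor of Notch, gave 1.03 ± 0.20 (limma adjusted p 0.101), and Hes1, a classic Notch target, gave -0.25 ± 0.24 (limma adjusted p 0.703).

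Among 17 measured partners of Tcf7 and Lef1, the beta-catenin and Tle proteins and their targets, none passed by limma, 2 had an unadjusted p under 0.05, and the median was -0.06. The extremes were Myc, a growth regulator, at -0.63 ± 0.36, and Bcl9, a beta-catenin co-activator, at 0.74 ± 0.35. Among 20 measured relatives of the members within their own protein families, none passed by limma, 2 had an unadjusted p under 0.05, and the median was 0.09. The difference was -1.34 ± 0.39 for Tcf7l1, a repressive relative of Tcf7, and 0.91 ± 0.83 for Erg, an ETS factor near background.

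Among 11 partners of Rag1 in receptor gene recombination, none passed by limma, 3 had an unadjusted p under 0.05, and the median was -0.35. Lig4, the ligase that seals the joined ends, gave -1.07 ± 0.27 and Nhej1, an end-joining factor, 0.07 ± 0.15. Rag2, named here after its values were seen, was well above background on 2 MR 4-25 arrays and 1 Neo array, so the partner of Rag1 was near background in both lines.

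Among 39 other regulators of thymocyte development, none passed by limma, 8 had an unadjusted p under 0.05, and the median was -0.12. The largest difference above 0 was that of Rora, a nuclear receptor, at 1.21 ± 0.19 (limma adjusted p 0.0660). Among 29 stage markers, 1 rose and 1 fell by limma, with a median of -0.10. An unadjusted p under 0.05 was seen for 9 of them, 4 higher and 5 lower. Il2ra, also a Notch list gene, rose, and Cd247, the zeta chain that signals for the T cell receptor, fell to 0.0229, 0.0251 and 0.0653 in MR 4-25, against 0.615, 0.576 and 0.491 in Neo (-4.06 ± 0.44, limma adjusted p 0.0263). Within the slides its difference was -4.63 (slide 1) and -2.91 (slide 2). The Cd247 call was lost with the replicate block (limma adjusted p 0.132) and with normexp, which gave -1.86 (limma adjusted p 0.536). Among 14 natural killer and innate lymphoid genes, 1 rose and none fell by limma, with 3 at an unadjusted p under 0.05. It was Gzmb, a killing protease of cytotoxic cells, at 57.2, 36.5 and 133 in MR 4-25 and 0.0803, 0.0576 and 0.219 in Neo (9.34 ± 0.70, limma adjusted p 0.0113), and it passed with the replicate block too (limma adjusted p 0.0452). With an array left out, Gzmb and Il2ra each passed in 2 of 6 cases, Cd247 in 1 and Blnk in none, with adjusted p up to 0.0875, 0.0771, 0.167 and 0.207 in that order.

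**Figure D4:**
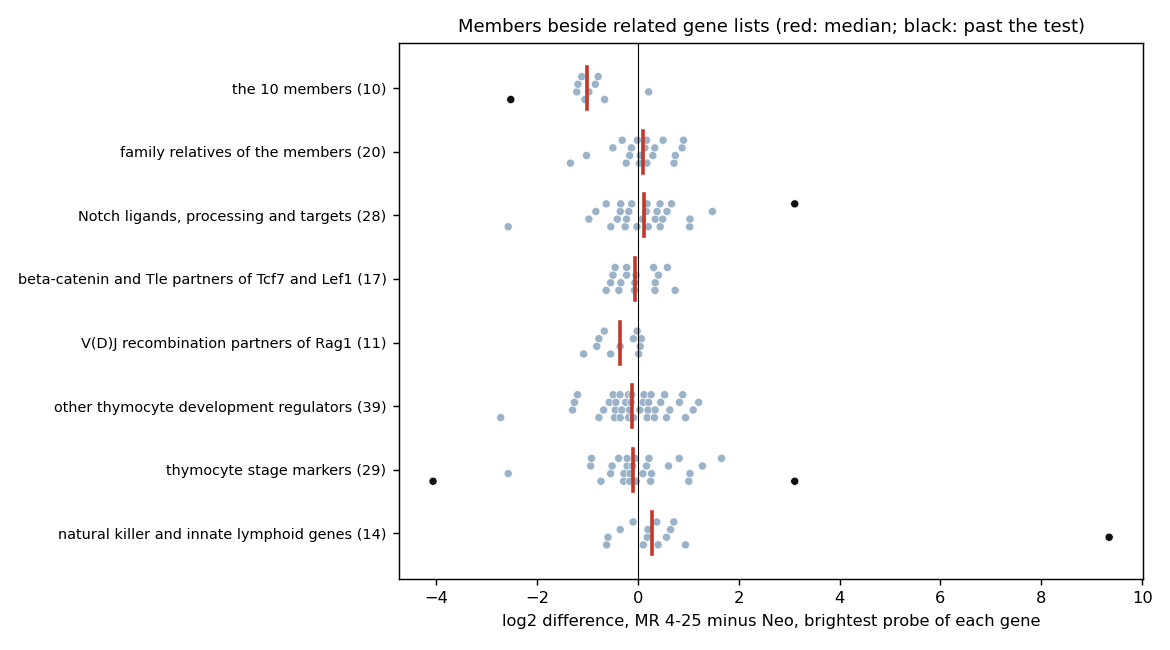
The log2 difference, MR 4-25 minus Neo, of the brightest probe of each measured gene (points) is plotted for the 10 members and 7 related lists (rows), with the median as a red line and genes past the test in black. The members' median is -1.01, and the medians of the other lists lie between -0.35 and 0.29.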

How the data were processed

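Total RNA of MR 4-25 and Neo cells, 3 samples each, was labelled with Cy3 and hybridised to 1-colour Agilent arrays. The deposited values are background-corrected intensity values of the scanner output, from Agilent Feature Extraction, whose version is 9.5 in the submitters' processing notes and 9.5.3.1 in the file headers. The deposited value table held the same values. Control spots and outlier spots were left out, the spots of a probe were averaged as log2 values, and log2 of each array's 75th percentile was subtracted. Probes that 3 or more of the 6 arrays read well above background were tested with limma 3.58.1 in R 4.3.3 over all 30965 such probes, with Benjamini-Hochberg adjustment and a threshold of 0.05. The number of arrays limits the precision.

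Members were found by the gene name in the files. The members and the gene lists were chosen with earlier results of these data known. Named genes were all members, the genes of each list that passed the test, up to 4, or the largest difference in each direction where none did, and the 3 profiles most like a member whose brightest probe passed; others are named as chosen after their values were seen. One gene that this rule names is not reported here. The brightest probe stood for a gene in the lists. After each line's mean was taken off, arrays with the same number correlated at 0.293, 0.209 and 0.553, each above 0.1, and the replicate number was also fitted as a block. Crossed pairs on slide 1 gave 0.411 and 0.359, more than the same-numbered pairs there. The fit was tested on simulated data. The alternatives were the deposited value table, other background corrections, scalings, filters and variance models. Array weights, slide and replicate blocks, slide 1 alone and each array left out were also run.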

Additional observations from a re-analysis of the deposited data

How the results depend on the processing

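Over the alternatives run, 366 of the member probe results kept their direction and side of the threshold. Another 30 lost the call, 28 gained a call and 0 reversed. All losses fell on the 3 called probes: 12 of 19 for Tox A_51_P421912, 7 of 18 for Tox A_52_P561073 and 11 of 18 for Ets1 A_52_P258291. The deposited value table held the same values, so it could change nothing. The filters, the brightest probe, the trend and robust fit and the blocks left each difference as it was, so they could not reverse it. The count of member probes called lower, 3 as reported, was 0 with normexp, 7 with normexp and quantile, 1 with median scaling, 1 with no filter, 7 with the filter on all 6 arrays, 1 of 10 with the brightest probe, 9 with a trend and robust fit, 16 with array weights, 0 with the replicate block, 1 on slide 1 alone, and 0 to 1 with an array left out. None was called higher by limma under any of these. With the slide block it was 2, Tox A_51_P421912 being lost. On the brightest probes 8 of 10 were lower without overlap and 9 below 0, where 49.4% of all genes were below 0. Normexp, run with an offset of 50 intensity units, moved the median of all probes by 0.37 and left Tox at -1.16 and -0.75. The deposited signal on the MR 4-25 arrays was 42.6 to 99.6 units for Tox A_51_P421912 and 35.0 to 50.1 for Tox A_52_P561073. What the offset did to differences at such a signal was not tested. Tcf7 A_52_P244702 passed under 5 of 19 alternatives. Over all probes, called higher and lower, the counts were 215 and 186 as reported, 65 and 25 with normexp, 432 and 379 with normexp and quantile, 112 and 112 with no filter, 401 and 350 with the filter on all 6, 144 and 119 with the brightest probe, 483 and 495 with the trend, 1340 and 1651 with weights, 1 and 0 with the replicate block, 85 and 87 on slide 1, and 4 to 128 and 2 to 180 with an array left out. In the gene lists, 2 and 1 as reported, they were 2 and 0 with normexp, 4 and 4 with normexp and quantile, 7 and 7 with the filter on all 6, 6 and 7 with the trend, 12 and 12 with weights, 2 and 4 with the slide block, 1 and 0 with the replicate block, and 0 to 2 and 0 to 1 with an array left out. The cause of these changes was not tested. Fewer probes entered the fit under the filter on all 6 and with the brightest probe. Fewer arrays entered it on slide 1 alone and with an array left out. Probes near background, such as Rag2, limit what can be seen at low signal.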
